A study of Homo sapiens with 240 samples.

Results

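NEAT1 and MALAT1 are long noncoding RNAs of the nucleus that lie next to each other on chromosome 11. They make up 2 of the 27234 genes listed in the 5 deposited tables of the study, and both were found by their symbols. The pair was chosen from these same data, because NEAT1 had risen strongly at 4 h with the compound 991 in cells carrying the SA5 form of FNIP1. That contrast, and every other one that uses the SA5 DMSO libraries or the SA5 libraries at 4 h, is therefore given as a description with no test. All other arms, compounds and times were tested across all genes of their table.

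The study measured polyadenylated RNA in 240 libraries of HEK 293T, a line derived from human embryonic kidney, in 80 groups of 3 libraries. In the AMPK table, AMPK knockout (KO) cells and AMPK wild-type (WT) cells received 991, an activator of the energy-sensing kinase AMPK, CCCP, which uncouples mitochondria, or phenformin (Phen) or rotenone (Rot), both of which block respiratory complex I. Exposure lasted 2, 4, 8 or 16 h, and control cells had DMSO. In the FNIP1 table, cells lacking their own FNIP1, a partner of the lysosomal protein folliculin, carried either SA5, in which the 5 AMPK phosphosites are alanine, or WT FNIP1, and received 991 for the same times or DMSO. In the other tables, 991 was given for 2 to 24 h to TFEB/TFE3 double knockout (DKO) cells and their WT cells, to ESRRA KO cells and their WT cells, and to cells with an siRNA against PGC1A (siPGC1A) and cells with a control siRNA (siControl). Every DMSO group is a 0 h group, so effects of a compound and of time in culture cannot be told apart. Doses are not given in the labels, which also do not say whether the knockout lines are single clones or whether the replicates are separate cultures, so each p-value speaks only of how far these libraries spread, which may be technical. Values are TPM, an abundance scaled for transcript length and for the library, and changes are differences in log2(TPM + 1), which compresses changes at levels around 1 TPM. Calls are at an adjusted p under 0.05 from limma with Benjamini-Hochberg adjustment over all genes tested in a table.

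NEAT1 is the RNA scaffold of paraspeckles, nuclear bodies that hold RNA-binding proteins and some edited RNAs. Its gene gives a short form, which ends at a poly(A) signal and carries a poly(A) tail, and a long form, which reads through that signal and is the form that paraspeckles need. MALAT1 is an abundant RNA of nuclear speckles, the bodies that store splicing factors. The long form of NEAT1 and MALAT1 both lack a normal poly(A) tail, because RNase P cuts them beside a tRNA-like element and the new end folds into a triple helix of U-rich and A-rich stretches. For MALAT1 the released element, trimmed by RNase Z, is known as mascRNA.

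The RNA ends matter here because the libraries were made from polyadenylated RNA. The sequences below, cut from GENCODE 29 transcripts, are the transcript strand on GRCh38, chromosome 11, plus strand. They run from 65426473 to 65426532 for the short form of NEAT1, from 65445421 to 65445540 for the long form, and from 65506008 to 65506127 for MALAT1, whose last 11 bases are the first of mascRNA. Only the stretch of the long form was placed at the annotated end of its transcript. That of the short form was placed at the end listed for NEAT1, and that of MALAT1 by the listed start of mascRNA. Capitals mark the poly(A) signal AATAAA in the first stretch, and in the others the U-rich motifs TTTCTTTT and TTTTGCTTT and the A-rich motif AAAGCAAAA.
end of the short form of NEAT1: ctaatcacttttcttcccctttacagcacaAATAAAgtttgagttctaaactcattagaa
3′ end of the long form of NEAT1: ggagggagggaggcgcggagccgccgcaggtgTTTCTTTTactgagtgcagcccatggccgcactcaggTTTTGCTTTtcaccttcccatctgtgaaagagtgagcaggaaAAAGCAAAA
3′ end of MALAT1: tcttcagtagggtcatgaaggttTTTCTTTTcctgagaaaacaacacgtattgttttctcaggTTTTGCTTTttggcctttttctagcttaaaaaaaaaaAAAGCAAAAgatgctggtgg
The motifs were searched on the transcript strand only. AATAAA occurred in the last 60 bases of 25.2% of 206435 annotated transcripts. In the last 120 bases of 200764 annotated transcripts, TTTCTTTT occurred in 1.48%, TTTTGCTTT in 0.27% and AAAGCAAAA in 0.332%. MALAT1 is listed on to 65506512, so its stretch is not a window of the same kind as these transcript ends. These matches describe letters only and measure no cleavage.

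The tables list NEAT1 at the short form, from 65422798 to 65426532 with a listed length of 3734 bases. The long form runs on to 65445540 and shares all of those bases, so reads of the short and the long form cannot be told apart in these values. MALAT1 is listed from 65497738 to 65506512 with a listed length of 8295 bases. Whether counting used the strand of the reads is not given in the sources used here, so reads from an antisense RNA at either locus cannot be told apart from those of NEAT1 or MALAT1. The 57 bases of mascRNA are listed as a row of their own, at 0 TPM in 34 libraries of the AMPK table with a median of 0.392 TPM, and its value is uncertain because it lies within MALAT1. NEAT1 reached 1 TPM in all 240 libraries. MALAT1 reached 1 TPM in 97 libraries of the AMPK table and missed it in the other 5, and reached it in 29 of 30 of the FNIP1 table, 36 of 36 of the TFEB/TFE3 table, 34 of 36 of the ESRRA table and 31 of 36 of the PGC1A table.

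Across the series, each library held a total of 396341 to 449208 TPM over its rows, and read depth is unknown because the values are TPM. VIM, KRT18 and CDH2, expressed in this line, had medians of at least 20.6 TPM in each table, whereas the kidney markers PAX8 and LHX1 stayed at or below 0.219 TPM in every library and PAX2 at or below 1.76 TPM. Of the markers of other cell types, the collagen gene COL1A1 had medians of 4.06 to 4.67 TPM and COL3A1 reached 2.74 TPM, and the others stayed at or below 0.222 TPM. The targeted genes were lower at the median in each altered arm, though mRNA of a disrupted gene can persist. PRKAA1 and PRKAA2, the catalytic subunits of AMPK, had medians of 2.74 and 3.69 TPM in AMPK KO cells, against 8.35 and 5.71 TPM in AMPK WT cells, and the libraries overlapped for PRKAA2. TFEB and TFE3 had medians of 1.66 and 8.39 TPM in DKO cells, against 2.16 and 10.9 TPM in WT cells, and these libraries overlapped. ESRRA had a median of 6.17 TPM in KO cells, against 10.1 TPM in WT cells, again with an overlap. PPARGC1A, which encodes PGC1A, had 0.061 TPM in siPGC1A cells, against 0.349 TPM in siControl cells. A few libraries stood apart or had conflicting labels. In AMPK WT cells, the titles of the 3 libraries used as phenformin 2 h say 991 at 2 h, and those of the 3 used as CCCP 4 h say CCCP at 16 h, against their library names and tags. Mean changes, compound pairs and mean differences of responses that rest on these 6 libraries were also computed without them. That time was then left out of every group compared, and the same was done for some list counts. The calls of these comparisons that changed are given, but not every recomputed value is. Single times were not recomputed in this way. In the SA5 arm, FNIP1 stood at 5.47 TPM in DMSO replicate 1 and at 45.05 TPM in 8 h replicate 1, against 164 to 195 TPM in the other 13 SA5 libraries. In the AMPK table, replicate 1 was the library with the highest NEAT1 in 29 of 34 groups and with the highest MALAT1 in 26 of 34. Replicate 1 also had the highest summed TPM of 16 RNAs that normally end without a long poly(A) tail (histone mRNAs and small RNAs such as RN7SK and RMRP, though some histone transcripts can carry a tail) in 25 of 34 groups. NEAT1 and these tailless RNAs were highest in the same library in 21 of 34 groups. Mean changes of NEAT1 and MALAT1 in the AMPK table are therefore also given without replicate 1.

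With 991, NEAT1 rose in FNIP1 WT, TFEB/TFE3 DKO and WT, ESRRA KO and WT, siPGC1A and siControl cells, and its mean level was highest at 4 h in each of these arms. In FNIP1 WT cells, NEAT1 stood at 31.7, 28.9 and 34.04 TPM after 4 h of 991, against 9.14, 7.003 and 8.49 TPM under DMSO. All 3 treated libraries lay above all 3 DMSO libraries, and the change of 1.83 ± 0.25 on the log2 scale (± 1 SE, adjusted p = 1.45e-05) was the largest rise of the 13317 genes tested. At 2 h of 991, NEAT1 had already reached 20.3, 17.97 and 19.9 TPM (1.15 ± 0.25, adjusted p = 0.00638). By 8 h the level was back to 10.6, 11.4 and 11.6 TPM and at 16 h to 13.8, 11.2 and 10.3 TPM, and neither differed from DMSO by the test (adjusted p = 0.3 and 0.24), although all of these libraries still lay above the DMSO libraries.

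In SA5 cells, whose contrast at 4 h chose NEAT1, the level was 18.3, 16.3 and 21.5 TPM at 4 h, against 1.14, 4.802 and 4.87 TPM under DMSO. The lowest of the DMSO values belongs to the library at 5.47 TPM of FNIP1. NEAT1 stood at 15.8, 13.2 and 16.1 TPM at 2 h, 5.66, 9.59 and 9.47 TPM at 8 h, and 9.56, 10.5 and 9.86 TPM at 16 h of 991 in SA5 cells. The described change at 4 h was 2.23 on the log2 scale with all libraries and 1.75 without the low DMSO library. Median-ratio scaling, which moved the median of all genes by -0.30 for the mean change in SA5 cells, gave 1.92 at 4 h. Before treatment, the SA5 mean was 3.60 ± 2.14 TPM and the FNIP1 WT mean 8.21 ± 1.09 TPM (SD, n = 3 each), and this difference is described only.

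SA5 and FNIP1 WT cells were compared directly at the times that played no part in choosing NEAT1. NEAT1 differed by -0.35 at 2 h (95% interval -0.87 to 0.16, adjusted p = 0.949), by -0.44 at 8 h (-0.95 to 0.08, adjusted p = 0.381) and by -0.21 at 16 h (-0.72 to 0.31, adjusted p = 1), SA5 minus WT. All 3 SA5 libraries lay below all 3 WT libraries at 2 h and at 8 h. MALAT1 differed by -0.19, 0.02 and -0.03 at these times (adjusted p = 1, 0.956 and 1). Of all genes, 1.48% at 2 h, 2.34% at 8 h and 1.67% at 16 h passed. Whether NEAT1 passed depended on the SA5 libraries low in FNIP1 and on the groups in the fit. In a fit of only the groups compared, the 2 h difference passed (adjusted p = 0.0383). Without DMSO replicate 1 the 8 h difference passed (adjusted p = 0.0213, with 4771 genes called instead of 311). Without both low libraries, a setting chosen after seeing the data, the 2 h difference passed (adjusted p = 0.0153) and the 8 h difference shrank to -0.22 (adjusted p = 0.207).

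In the TFEB/TFE3 table, NEAT1 reached 76.1, 54.5 and 68.8 TPM in DKO cells at 4 h of 991, against 16.9, 12.8 and 17.4 TPM in DKO cells under DMSO (2.01 ± 0.16, adjusted p = 2.21e-10). In the WT cells of that table it reached 38.01, 33.7 and 48.3 TPM at 4 h, against 8.36, 5.55 and 9.96 TPM under DMSO (2.21 ± 0.16, adjusted p = 1.11e-11). Treated and DMSO libraries did not overlap in either arm, and each change was the second largest rise of 13746 genes. The level then declined without returning to that of DMSO. At 24 h of 991, NEAT1 stood at 26.9, 36.8 and 29.99 TPM in DKO cells and at 14.96, 14.7 and 14.3 TPM in WT cells, and all 10 comparisons of a time with DMSO passed.

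In the PGC1A table, NEAT1 was likewise lower at 24 h than at 4 h and still above DMSO. In siPGC1A cells it stood at 34.6, 28.1 and 41.5 TPM at 4 h and at 28.04, 27.9 and 26.1 TPM at 24 h of 991, against 9.69, 7.58 and 10.47 TPM under DMSO. In siControl cells it stood at 24.8, 25.95 and 29.1 TPM at 4 h and at 21.96, 21.3 and 20.6 TPM at 24 h, against 8.63, 7.77 and 7.95 TPM under DMSO. Every 24 h library lay below every 4 h library of its arm and above its DMSO libraries. All 10 comparisons with DMSO passed here too. At 4 h the change was 1.80 ± 0.15 in siPGC1A cells (adjusted p = 7.29e-10, the largest rise of 13404 genes) and 1.60 ± 0.15 in siControl cells (adjusted p = 5.09e-09, the second largest).

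In the ESRRA table the arms differed in their DMSO level. NEAT1 stood at 9.56, 8.73 and 10.3 TPM under DMSO in ESRRA KO cells, against 29.98, 12.97 and 17.7 TPM in their WT cells. At 2 h of 991, it stood at 34.4, 17.3 and 38.5 TPM in KO cells and at 25.9, 15.1 and 21.8 TPM in WT cells. The KO libraries at 2 h all lay above their DMSO libraries, whereas those of WT cells overlapped them. At 4 h NEAT1 reached 30.8, 29.99 and 54.1 TPM in KO cells (1.85 ± 0.25, adjusted p = 7.19e-07) and 60.8, 52.2 and 70.6 TPM in WT cells (1.62 ± 0.25, adjusted p = 6.79e-06). In KO cells all 5 times passed, and in WT cells the 4 h comparison alone did. The ESRRA WT result rests in part on DMSO replicate 1, at 29.98 TPM.

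**Figure D1:**
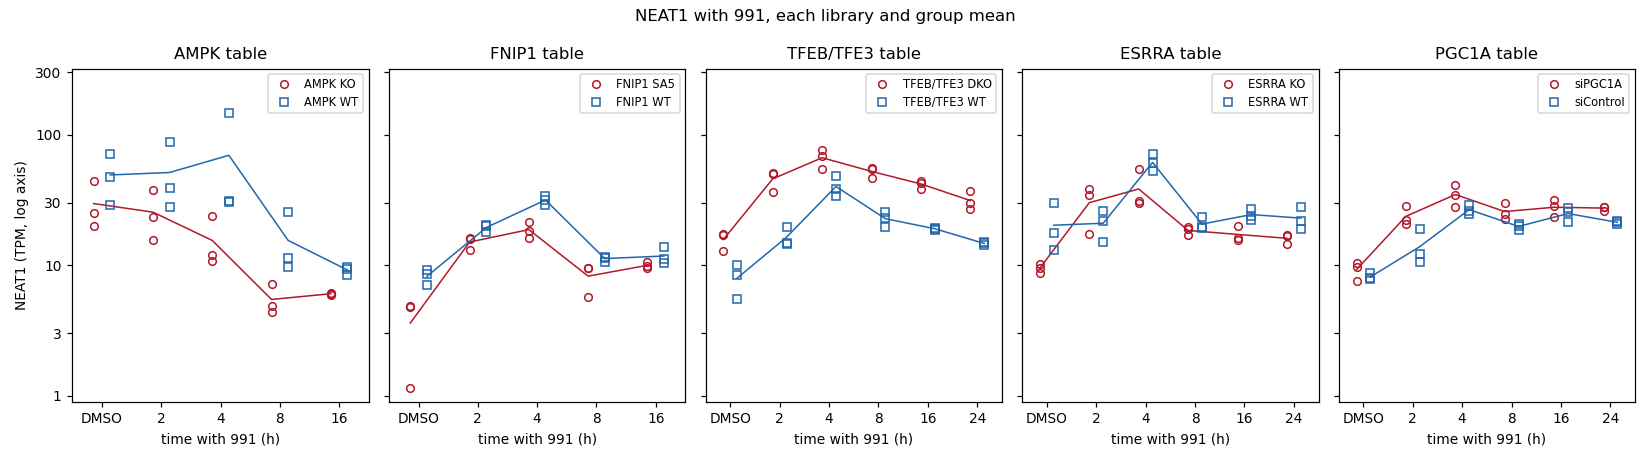
NEAT1 in TPM (log axis) under DMSO and over time with 991 in the 5 tables, with the altered arm as circles and its control arm as squares, 1 point per library and lines through group means. Outside the AMPK table the 4 h libraries lie above the DMSO libraries in every arm, and in the AMPK table the level falls by 16 h.

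Over whole time courses, the mean change of NEAT1 with 991 was 1.498 ± 0.13 in TFEB/TFE3 DKO cells (adjusted p = 2.75e-10), 1.14 ± 0.19 in ESRRA KO cells (adjusted p = 2.76e-05) and 1.48 ± 0.12 in siPGC1A cells (adjusted p = 9.51e-11). In the control arms it was 1.33 in TFEB/TFE3 WT (adjusted p = 7.43e-10), 0.48 in ESRRA WT (adjusted p = 0.0473), 1.25 in siControl (adjusted p = 2.15e-09) and 0.96 in FNIP1 WT cells (adjusted p = 0.00101). The background of genes called in either direction was 45.7% in DKO, 38.6% in ESRRA KO, 50.9% in siPGC1A, 55.8% in TFEB/TFE3 WT, 40.4% in ESRRA WT, 52.5% in siControl and 20.6% in FNIP1 WT cells, so a call alone is common in these tables. By size, the mean rise of NEAT1 ranked 2 in siPGC1A, 3 in siControl, 3 in DKO, 11 in TFEB/TFE3 WT, 11 in ESRRA KO, 19 in FNIP1 WT and 300 in ESRRA WT cells, counted from the largest rise of all genes tested. The ESRRA WT call did not hold without replicate 2 (0.30, adjusted p = 0.207) or without replicate 3 (0.35, adjusted p = 0.291), and the FNIP1 WT call did not hold without replicate 2 (0.90, adjusted p = 0.0789) or replicate 3 (0.99, adjusted p = 0.06). Scaling by median ratios or quantiles moved the median change of all genes by -0.10 to -0.11 in the PGC1A table, against which the NEAT1 changes there were 1.14 to 1.37.

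In the AMPK table NEAT1 went the other way. It fell with each of the 4 compounds in both arms, and no single time showed a rise that passed the test. With phenformin in AMPK WT cells it stood at 21.8, 4.31 and 5.95 TPM at 2 h, 17.9, 2.70 and 3.19 TPM at 4 h, 5.76, 2.14 and 1.71 TPM at 8 h, and 2.40, 2.90 and 2.49 TPM at 16 h, against 71.1, 29.1 and 47.01 TPM under DMSO. In AMPK KO cells it stood at 6.29, 2.11 and 2.72 TPM at 2 h, 3.60, 1.61 and 2.36 TPM at 4 h, 1.85, 1.18 and 1.37 TPM at 8 h, and 2.18, 2.80 and 2.10 TPM at 16 h of phenformin, against 44.03, 19.9 and 24.9 TPM under DMSO. None of the phenformin libraries reached the lowest DMSO library of its arm. The mean change was -3.12 ± 0.38 in KO cells (adjusted p = 1.84e-11) and -3.12 ± 0.38 in WT cells (adjusted p = 1.9e-11), the third and the second largest falls of 13617 genes, and without replicate 1 it was -2.97 in KO and -3.25 in WT cells. Without the 2 h libraries of conflicting wording it was -3.38 in WT cells (adjusted p = 1.44e-12).

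NEAT1 also fell with rotenone and with CCCP. At 2 h of rotenone NEAT1 stood at 11.1, 4.35 and 6.20 TPM in KO cells and at 17.01, 6.84 and 9.73 TPM in WT cells, and at 16 h at 7.54, 8.39 and 7.75 TPM in KO and at 8.57, 8.36 and 7.06 TPM in WT cells. With CCCP it stood at 21.8, 6.51 and 10.4 TPM in KO and at 21.95, 10.2 and 21.8 TPM in WT cells at 2 h, and at 5.72, 5.99 and 6.87 TPM in KO and at 10.55, 8.28 and 7.24 TPM in WT cells at 16 h. With either compound, the 2 h and the 16 h libraries of an arm overlapped. Mean changes were -1.88 with rotenone (adjusted p = 1.32e-05) and -1.49 with CCCP (adjusted p = 0.000406) in KO cells, and -2.25 (adjusted p = 3.3e-07) and -1.83 (adjusted p = 1.75e-05) in WT cells. Without replicate 1 they were -1.71 and -1.43 in KO cells and -2.18 and -1.67 in WT cells, all still called. Without the CCCP 4 h libraries of conflicting wording, the CCCP change in WT cells was -1.84 (adjusted p = 1.77e-05).

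With 991 in the AMPK table, NEAT1 in WT cells spread widely among libraries. It stood at 87.1, 27.96 and 38.6 TPM at 2 h, 146.5, 30.9 and 30.6 TPM at 4 h, 25.4, 11.3 and 9.70 TPM at 8 h, and 9.36, 9.76 and 8.44 TPM at 16 h, against 71.1, 29.1 and 47.01 TPM under DMSO. In KO cells it stood at 37.4, 15.5 and 23.5 TPM at 2 h, 23.7, 12.04 and 10.7 TPM at 4 h, 7.16, 4.84 and 4.38 TPM at 8 h, and 6.12, 5.95 and 6.07 TPM at 16 h, against 44.03, 19.9 and 24.9 TPM under DMSO. The 2 h and 4 h libraries overlapped those of DMSO in both arms, and the 8 h and 16 h libraries lay below them. At 4 h the change was -0.90 ± 0.48 in KO cells (adjusted p = 0.127, and 0.0181 with the replicate number as a block, since the libraries of these groups deviated together by number) and 0.17 ± 0.48 in WT cells (adjusted p = 0.797), and at 16 h -2.04 in KO cells (adjusted p = 0.000165) and -2.21 in WT cells (adjusted p = 3.77e-05).

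The mean change with 991 was -1.34 in KO cells (adjusted p = 0.00207) and -0.92 in WT cells (adjusted p = 0.0295). Without replicate 1 it was -1.23 in KO and -1.02 in WT cells, both still called. The WT call did not hold without replicate 2 (-1.04, adjusted p = 0.0684), without replicate 3 (-0.71, adjusted p = 0.326) or in a fit of the AMPK WT 991 and DMSO libraries alone (adjusted p = 0.098), and the KO call did not hold without replicate 3 (-1.33, adjusted p = 0.0651). Over all compounds and both arms, NEAT1 was lower in 28 of 32 single comparisons of the AMPK table and not called in 4. The background of single comparisons called, in either direction, was 58.3% in KO and 60.5% in WT cells. That of mean changes was 52.7% with 991, 66.6% with CCCP, 75.2% with Phen and 65.8% with Rot in KO cells, and 60.2%, 69.6%, 75% and 67.9% in WT cells for the compounds in the same order.

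In the AMPK table the mean summed level of tailless RNAs was below DMSO in every treated group. In WT cells it was 42.98 TPM on average at 8 h of phenformin and 137.6 TPM at 4 h of 991, against 159.8 TPM under DMSO. At 16 h in WT cells it was 60.2 TPM with phenformin and 49.1 TPM with rotenone, where NEAT1 averaged 2.59 and 8.00 TPM. The higher phenformin mean rests on replicate 1. The WT libraries stood at 91.8, 43.8 and 45.1 TPM with phenformin and at 45.7, 49.8 and 51.9 TPM with rotenone. At 16 h in KO cells the summed level averaged 50.9 and 51.6 TPM with these compounds, where NEAT1 averaged 2.36 and 7.89 TPM. In WT libraries it was 249.3, 107.7 and 122.4 TPM under DMSO, where NEAT1 was 71.1, 29.1 and 47.01 TPM, and 239.7, 77.1 and 96.1 TPM at 4 h of 991, where NEAT1 was 146.5, 30.9 and 30.6 TPM. In KO cells under DMSO it was 234.7, 78.9 and 81.1 TPM, so the KO mean under DMSO rests in large part on replicate 1. At 2 h of 991 in KO cells it was 119.3, 63.2 and 105.0 TPM, where replicates 1 and 3 lay above DMSO replicates 2 and 3. Of 13 tailless RNAs tested in WT cells, 0 rose and 11 fell with 991, 12 with CCCP, 11 with Phen and 11 with Rot, with medians of -0.53, -0.59, -0.75 and -0.82 against medians of all genes between -0.0004 and 0.04. In KO cells 7 fell with 991, 7 with CCCP, 6 with Phen and 6 with Rot, and 1 rose, with Phen, with medians of -0.38, -0.36, -0.29 and -0.33. The shares of all genes called are those just given for mean changes. At 4 h of 991 alone, 1 of 13 fell in WT cells and 6 of 13 in KO cells, beside 6257 and 5279 of 13617 genes called. The linker histone HIST1H1C fell by 2.74 with phenformin. Their part in the fall of NEAT1 was not tested.

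**Figure D2:**
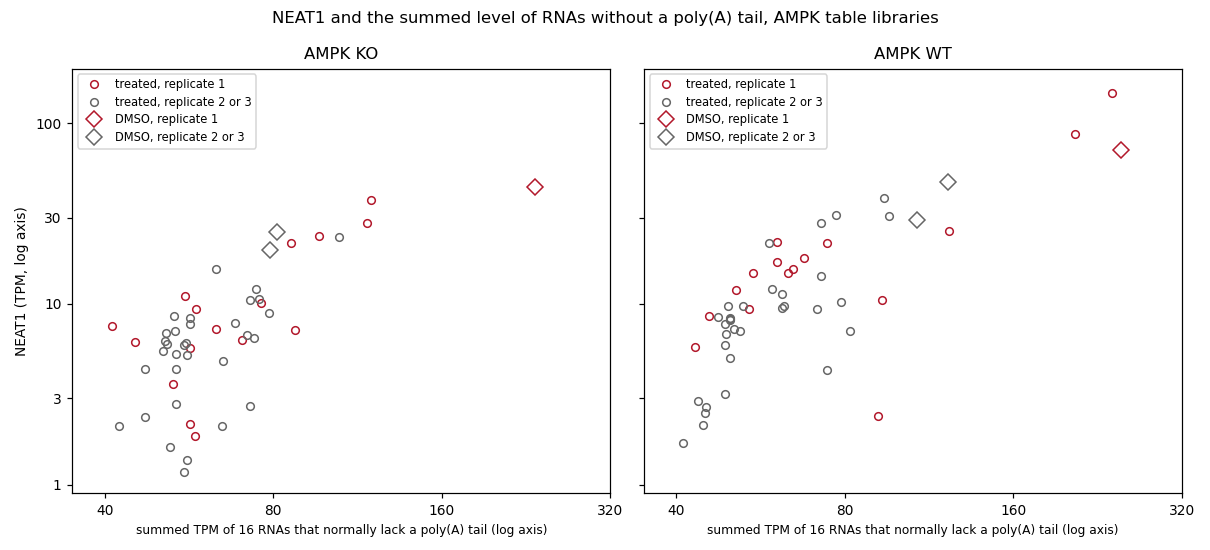
NEAT1 against the summed TPM of 16 RNAs that normally lack a poly(A) tail (both log axes) in each library of AMPK KO and AMPK WT cells, with DMSO libraries as diamonds and replicate 1 in red. The replicate 1 DMSO library lies far to the right in both panels, at 234.7 TPM of tailless RNAs in KO and 249.3 TPM in WT cells, and the lowest NEAT1, 1.18 TPM, is in a KO library.

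Outside the AMPK table, the libraries highest in tailless RNAs were also highest in NEAT1 in some tables and not in others. The TFEB/TFE3 library highest in tailless RNAs, DKO replicate 1 at 4 h of 991 with 110.3 TPM, had the highest NEAT1 of its table, 76.1 TPM. In the PGC1A table the highest were siPGC1A replicates 1 and 3 at 4 h, with 175.5 and 174.1 TPM, which also had the highest NEAT1, 34.6 and 41.5 TPM. In the ESRRA and FNIP1 tables the highest libraries did not stand out in this way. Within groups, NEAT1 and the tailless RNAs were highest in the same library in 7 of 12 TFEB/TFE3, 2 of 12 PGC1A, 4 of 12 ESRRA and 5 of 10 FNIP1 groups. Between PGC1A groups, siPGC1A cells under DMSO averaged 138.9 TPM of tailless RNAs and 9.25 TPM of NEAT1. By contrast, siControl cells at 4 h of 991 averaged 88.6 TPM of tailless RNAs and 26.6 TPM of NEAT1. The summed level of the tailless RNAs was 386.6 TPM in ESRRA KO replicate 1 at 16 h and 321.0 TPM in ESRRA WT replicate 3 at 16 h, where NEAT1 stood at 16.1 TPM and 23.9 TPM, within the range of the other libraries of the same groups. It was 159.0 TPM in SA5 DMSO replicate 1, the library with the lowest NEAT1 of the FNIP1 table. With 991, 0 of 11 tailless RNAs tested changed in FNIP1 WT cells while NEAT1 rose, and 2 of 11 rose in TFEB/TFE3 WT cells, 0 of 12 in ESRRA WT cells and 3 of 12 in siControl cells, where 2 fell. Of all genes, 20.6%, 55.8%, 40.4% and 52.5% were called in these arms in the same order.

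The 4 compounds were compared with each other in AMPK WT cells at the same times, as 6 pairs of mean levels over 2 to 16 h. NEAT1 was lower with phenformin than with rotenone (-0.87, 95% interval -1.34 to -0.39, adjusted p = 0.000987), than with CCCP (-1.29, -1.76 to -0.81, adjusted p = 2.03e-06) and than with 991 (-2.19, -2.67 to -1.72, adjusted p = 2.93e-13), the last being the largest fall of 13617 genes. It was lower with rotenone than with 991 (-1.33, adjusted p = 1.58e-06) and with CCCP than with 991 (-0.90, adjusted p = 0.000666). Rotenone and CCCP did not differ by the test (-0.42, 95% interval -0.90 to 0.05, adjusted p = 0.138), though without replicate 1 they did (-0.51, adjusted p = 0.000631). The background of genes called was 69.1% for Phen against Rot, 69.4% for Phen against CCCP, 78.2% for Phen against 991, 47.6% for Rot against CCCP, 65.5% for Rot against 991 and 65.6% for CCCP against 991. The call of phenformin against rotenone did not hold without replicate 3 (-0.73, adjusted p = 0.0864), and that of CCCP against 991 did not without the CCCP 4 h libraries of conflicting wording (-0.55, adjusted p = 0.074).

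**Figure D3:**
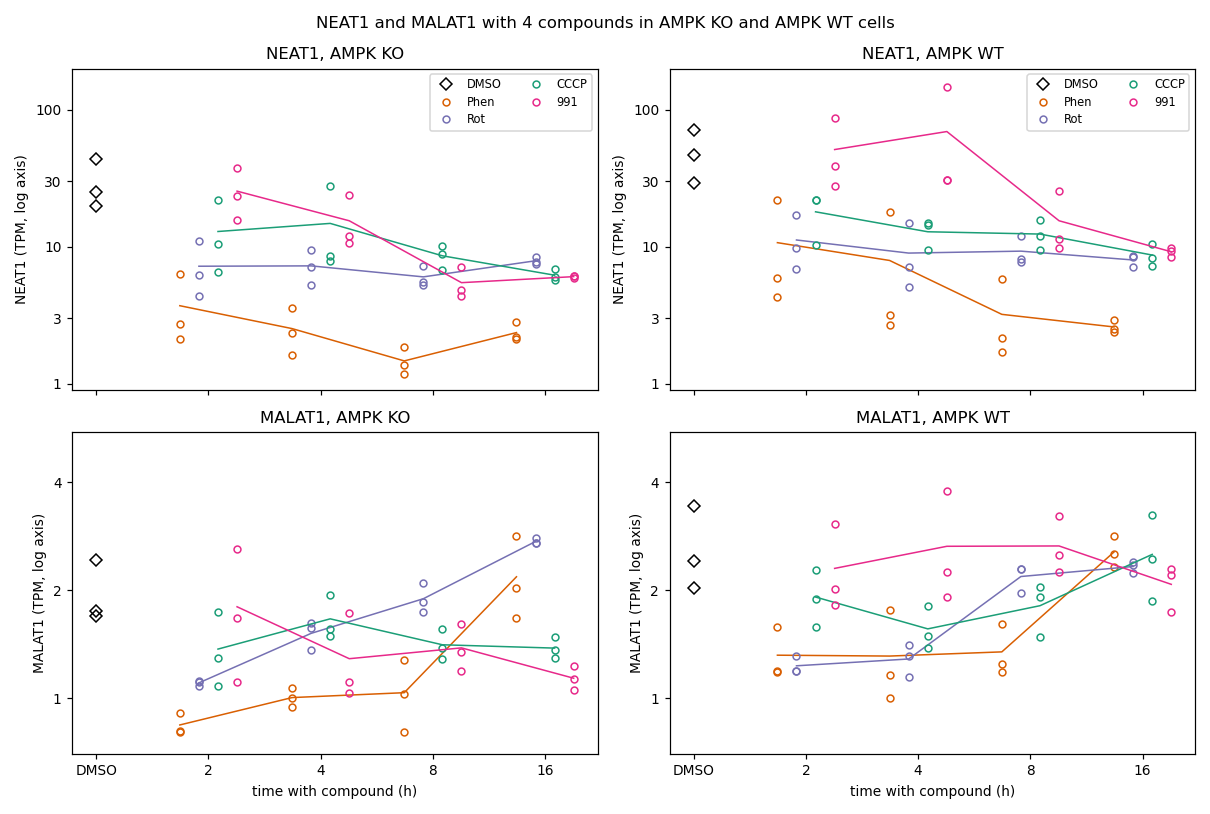
NEAT1 and MALAT1 in TPM (log axes) under DMSO and over time with phenformin, rotenone, CCCP and 991 in AMPK KO cells and AMPK WT cells, 1 point per library and lines through group means. NEAT1 is lowest with phenformin, down to 1.18 TPM in KO cells, and MALAT1 dips with phenformin and rotenone and stands at 1.67 to 2.84 TPM at 16 h with these compounds.

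MALAT1 had far lower values, between 0.276 and 9.25 TPM over all libraries, and its course differed from that of NEAT1. Because MALAT1 lacks a normal poly(A) tail and the libraries hold polyadenylated RNA, its values do not compare its abundance in the cell with that of NEAT1. With 991 its mean level stood highest at 16 or 24 h in both arms of the TFEB/TFE3, ESRRA and PGC1A tables. In TFEB/TFE3 DKO cells it was 8.56, 8.04 and 8.49 TPM at 16 h of 991, against 2.96, 2.94 and 3.52 TPM under DMSO (1.18 ± 0.10, adjusted p = 1.52e-10). In TFEB/TFE3 WT cells it was 3.70, 3.79 and 4.43 TPM at 16 h, against 1.29, 1.37 and 1.83 TPM under DMSO (1.00 ± 0.10, adjusted p = 1.25e-09). No treated library at 16 h overlapped DMSO in either arm.

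Late rises were also measured in the ESRRA and PGC1A tables. At 24 h of 991 MALAT1 was 2.49, 2.73 and 2.16 TPM in ESRRA KO cells, against 0.842, 1.21 and 0.842 TPM under DMSO (0.82 ± 0.17, adjusted p = 0.000332), and 3.76, 3.06 and 5.00 TPM in their WT cells, against 2.18, 1.26 and 1.34 TPM (0.93 ± 0.17, adjusted p = 5.67e-05). It was 2.84, 3.53 and 2.97 TPM at 24 h in siPGC1A cells, against 0.956, 1.20 and 0.997 TPM under DMSO (1.00 ± 0.12), and 3.17, 2.21 and 3.76 TPM at 16 h in siControl cells, against 0.795, 1.01 and 0.706 TPM (1.13 ± 0.12). Treated libraries lay above DMSO libraries in all 4 arms.

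In FNIP1 WT cells MALAT1 was 1.95, 2.02 and 1.496 TPM at 16 h of 991, against 1.51, 1.27 and 1.21 TPM under DMSO, an overlap of the groups. Its mean change of 0.24 did not pass (adjusted p = 0.234), but it did without both SA5 libraries low in FNIP1 (adjusted p = 0.00317). In SA5 cells MALAT1 was 1.71, 1.69 and 1.87 TPM at 16 h, against 0.276, 1.11 and 1.27 TPM under DMSO, and the described mean change of 0.49 was 0.23 without the low DMSO library. The mean change was 0.74 in DKO, 0.57 in ESRRA KO, 0.69 in siPGC1A, 0.72 in TFEB/TFE3 WT, 0.51 in ESRRA WT and 0.71 in siControl cells, all called, though that of ESRRA WT cells was not without replicate 2 (0.42, adjusted p = 0.0533). Single times were called in 28 of 66 comparisons as higher and in 28 as lower for NEAT1, and in 25 as higher and 14 as lower for MALAT1. Outside the AMPK table the background of such single calls, in either direction, was 37.1% in TFEB/TFE3 DKO, 39.1% in ESRRA KO, 40.9% in siPGC1A, 14.4% in FNIP1 WT, 46.5% in TFEB/TFE3 WT, 36.9% in ESRRA WT and 42.1% in siControl cells.

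**Figure D4:**
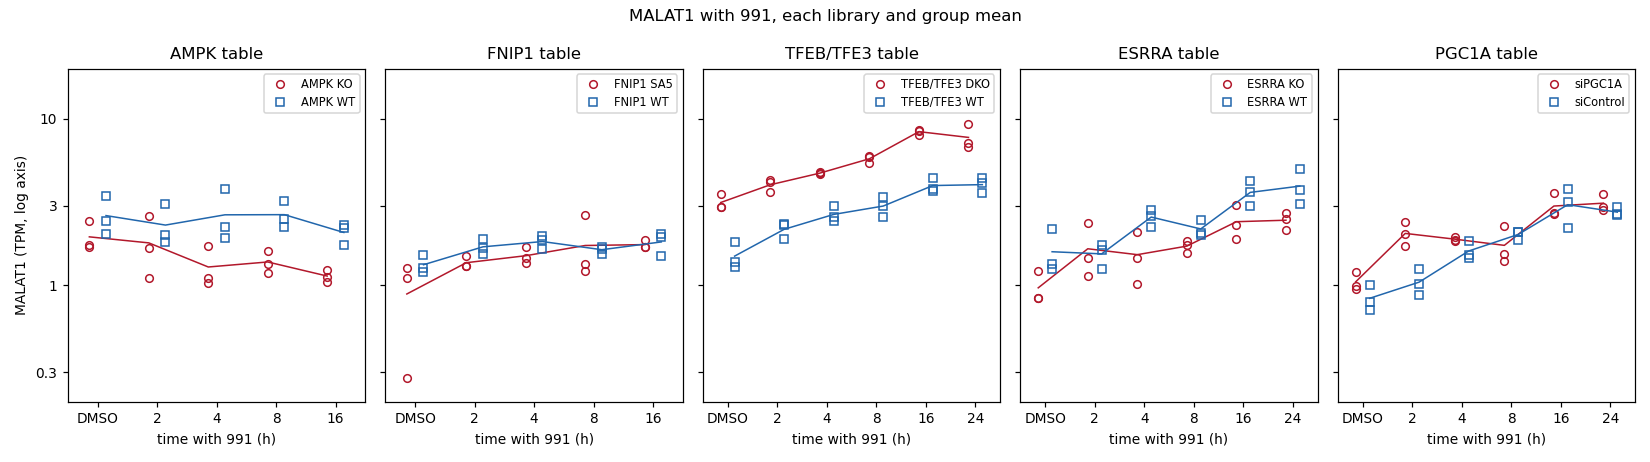
MALAT1 in TPM (log axis) under DMSO and over time with 991 in the 5 tables, with the altered arm as circles and its control arm as squares, 1 point per library and lines through group means. MALAT1 climbs to its highest levels at 16 or 24 h in the TFEB/TFE3, ESRRA and PGC1A tables, and a single SA5 DMSO library stands at 0.276 TPM.

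In the AMPK table MALAT1 dipped early with phenformin and rotenone and came back. With phenformin it was 0.911, 0.812 and 0.803 TPM in KO cells and 1.58, 1.19 and 1.19 TPM in WT cells at 2 h, and 2.84, 2.03 and 1.67 TPM in KO and 2.83, 2.52 and 2.32 TPM in WT cells at 16 h. Under DMSO it was 2.42, 1.69 and 1.75 TPM in KO and 3.42, 2.02 and 2.42 TPM in WT cells. The 2 h libraries lay below the DMSO libraries in both arms, and the 16 h libraries overlapped them. Those of WT cells at 2 h of phenformin are libraries of conflicting wording. With rotenone MALAT1 was 1.08, 1.11 and 1.12 TPM in KO and 1.31, 1.19 and 1.19 TPM in WT cells at 2 h. At 16 h of rotenone it was 2.79, 2.70 and 2.70 TPM in KO cells, all above DMSO (0.35 ± 0.14, adjusted p = 0.0291), and 2.40, 2.35 and 2.23 TPM in WT cells, where the libraries overlapped DMSO (adjusted p = 0.531). NEAT1 did not come back in these libraries, as given above. With CCCP, MALAT1 in WT cells also lay below DMSO at 4 h, at 1.38, 1.81 and 1.49 TPM in the libraries of conflicting wording. It overlapped DMSO at 16 h of CCCP in WT cells, at 3.23, 2.44 and 1.87 TPM. In KO cells it was 1.48, 1.29 and 1.37 TPM at 16 h of CCCP, all below DMSO.

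Mean changes of MALAT1 in KO cells were -0.42 with phenformin (adjusted p = 0.000719), -0.10 with rotenone (adjusted p = 0.46), -0.26 with CCCP (adjusted p = 0.0338) and -0.31 with 991 (adjusted p = 0.0164). In WT cells they were -0.47 (adjusted p = 0.000129), -0.40 (adjusted p = 0.00131), -0.30 (adjusted p = 0.0163) and -0.08 (adjusted p = 0.532) for the compounds in the same order. Without replicate 1 they were -0.37, -0.0033, -0.22 and -0.29 in KO cells and -0.41, -0.27, -0.18 and -0.06 in WT cells, with the same calls. The 991 call in KO cells did not hold without replicate 2 (adjusted p = 0.0982) or replicate 3 (0.0958), the CCCP call in KO cells did not without replicate 2 (0.119) or replicate 3 (0.106), and the CCCP call in WT cells did not without replicate 3 (0.0775) or without the libraries of conflicting wording (-0.23, adjusted p = 0.0732). With quantile normalization the KO calls with CCCP (-0.13, adjusted p = 0.267) and phenformin (-0.22, adjusted p = 0.0534) were lost. Of the 6 pairs of compounds, MALAT1 was lower with phenformin than with 991 (-0.39, adjusted p = 1.15e-06) and than with CCCP (-0.18, adjusted p = 0.0219), and lower than with 991 under rotenone (-0.32, adjusted p = 8.52e-05) and under CCCP (-0.21, adjusted p = 0.00724). Phenformin against rotenone (-0.07, 95% interval -0.22 to 0.07) and rotenone against CCCP (-0.10, -0.25 to 0.04) did not pass. The call against CCCP did not hold without replicate 2 (adjusted p = 0.112), without replicate 3 (0.268) or with quantile normalization (0.147), and that of CCCP against 991 did not without replicate 2 (0.0505) or with quantile normalization (0.0909). Without the libraries of conflicting wording, neither of these passed (-0.11, adjusted p = 0.312, and -0.12, adjusted p = 0.217).

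Taking each time course as a whole with a moderated F test over its times, NEAT1 passed in 15 of 15 courses and MALAT1 in 12 of 15, against 77.5% of all genes and courses. The courses in which MALAT1 did not pass were AMPK KO with CCCP, AMPK WT with 991 and FNIP1 WT with 991. Without replicate 3, NEAT1 passed in 12 and MALAT1 in 11 of 15.

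Under DMSO the arms were compared within each table. NEAT1 was higher in TFEB/TFE3 DKO cells, at 16.9, 12.8 and 17.4 TPM, than in their WT cells, at 8.36, 5.55 and 9.96 TPM (0.92 ± 0.17, adjusted p = 2.71e-05), and these libraries did not overlap. MALAT1 was higher there as well, at 2.96, 2.94 and 3.52 TPM in DKO against 1.29, 1.37 and 1.83 TPM in WT cells (0.73 ± 0.10, adjusted p = 4.15e-07). Of all genes, 51.3% passed in this comparison. NEAT1 was lower in ESRRA KO than in ESRRA WT cells (-0.94 ± 0.25, adjusted p = 0.00704), where 21.5% of genes passed, but not without replicate 1, which holds the WT library at 29.98 TPM (-0.63, adjusted p = 0.226), nor in a fit of these libraries alone (adjusted p = 0.0552). MALAT1 in ESRRA KO cells differed by -0.39 (adjusted p = 0.101).

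In the AMPK table NEAT1 averaged 29.6 ± 12.7 TPM in KO cells and 49.1 ± 21.1 TPM in WT cells under DMSO (SD, n = 3 each). The difference of -0.70 did not pass (95% interval -1.65 to 0.25, adjusted p = 0.251), and without replicate 1 it did (-0.71, adjusted p = 0.0173). NEAT1 was lower in KO cells for each replicate number. MALAT1 differed by -0.28 there (adjusted p = 0.106), and 38.9% of genes passed. Libraries with the same number deviated together in this comparison, and with the number as a block the MALAT1 difference passed (adjusted p = 0.0275) and the NEAT1 difference did not (adjusted p = 0.071). siPGC1A and siControl cells differed by 0.16 in NEAT1 (95% interval -0.16 to 0.47, adjusted p = 0.499) and by 0.16 in MALAT1 (adjusted p = 0.37), where 24.2% of genes passed.

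Whether a response depended on the altered gene was tested as the difference of the responses, altered minus control arm. For the mean over times, none of 7 such differences passed for NEAT1 or MALAT1. In AMPK cells the NEAT1 differences were -0.42 with 991 (95% interval -1.48 to 0.64, adjusted p = 0.652), 0.34 with CCCP (-0.72 to 1.40), -0.01 with phenformin (-1.07 to 1.05) and 0.37 with rotenone (-0.69 to 1.43). These intervals span more than 1 unit of log2 on at least 1 side, so differences of that size between AMPK KO and WT cells were not excluded. In the other tables they were 0.17 for TFEB/TFE3 (-0.20 to 0.54, adjusted p = 0.601), 0.67 for ESRRA (0.11 to 1.22, adjusted p = 0.164) and 0.24 for PGC1A (-0.11 to 0.58, adjusted p = 0.819). Shares of all genes called were 16.2% with 991, 25.9% with CCCP, 7.60% with Phen and 2.44% with Rot in the AMPK table, 12.2% for TFEB/TFE3, 4.52% for ESRRA and 0.0597% for PGC1A.

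At single times, 1 of 31 differences of responses passed for NEAT1 and 0 of 31 for MALAT1. The call was NEAT1 at 2 h of 991 in ESRRA cells, where the KO response exceeded the WT response by 1.39 ± 0.35 (adjusted p = 0.033). It did not hold without replicate 1 (1.12, adjusted p = 0.332), without replicate 3 (1.33, adjusted p = 0.219), without a filter on low values (adjusted p = 0.0644) or in a fit of the groups compared alone (adjusted p = 0.228). At single times the background was 10.3% in the AMPK, 9.24% in the TFEB/TFE3, 2.47% in the ESRRA and 0.0642% in the PGC1A table.

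The order of levels was taken within each table, because the tables were normalized separately. NEAT1 was highest in AMPK WT cells at 4 h of 991, with a mean of 69.3 TPM, and lowest in AMPK KO cells at 8 h of phenformin, with 1.47 TPM, a ratio of 47.3. Of the 33 pairs of neighbours in that order 32 overlapped in their libraries, so that single steps are not resolved. In the other tables the highest and the lowest group means of NEAT1 were 31.5 and 3.60 TPM for FNIP1, 66.4 and 7.96 TPM for TFEB/TFE3, 61.2 and 9.52 TPM for ESRRA, and 34.7 and 8.12 TPM for PGC1A. Neighbours overlapped in 5 of 9, 8 of 11, 10 of 11 and 9 of 11 pairs. For MALAT1 the range of group means was narrow in the AMPK table, 0.842 to 2.73 TPM, and widest in the TFEB/TFE3 table, 1.497 to 8.36 TPM, where 5 of 11 neighbours overlapped.

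The proteins of paraspeckles were described by their mRNAs in AMPK WT cells. Of 21 listed genes 20 were tested, and 2 rose and 17 fell with phenformin, 5 rose and 7 fell with rotenone, 1 rose and 13 fell with CCCP, and 2 rose and 10 fell with 991. The medians were -0.28, -0.03, -0.12 and -0.09 in that order, beside medians of all genes between -0.0004 and 0.04. Of all genes, 75% were called with phenformin, 67.9% with rotenone, 69.6% with CCCP and 60.2% with 991. With rotenone and 991 no larger share of the list was called than of all genes, and with CCCP about the same share. With quantile normalization 13 fell with phenformin and 7 with 991. With phenformin, SFPQ, an essential RNA-binding protein of paraspeckles that pairs with NONO, fell by 1.23 (adjusted p = 5.83e-49), and RBM14, also required for their assembly, by 0.98 (adjusted p = 2.88e-10). SFPQ averaged 145 TPM with phenformin against 296 TPM under DMSO. NONO itself differed by -0.05 with phenformin (adjusted p = 0.00337) and by at most 0.02 with the others, none of which passed. CPSF7, a subunit of the cleavage factor that acts at the poly(A) signal where the short form of NEAT1 ends, rose with phenformin by 0.40, and TARDBP, which binds NEAT1, by 0.21.

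**Figure D5:**
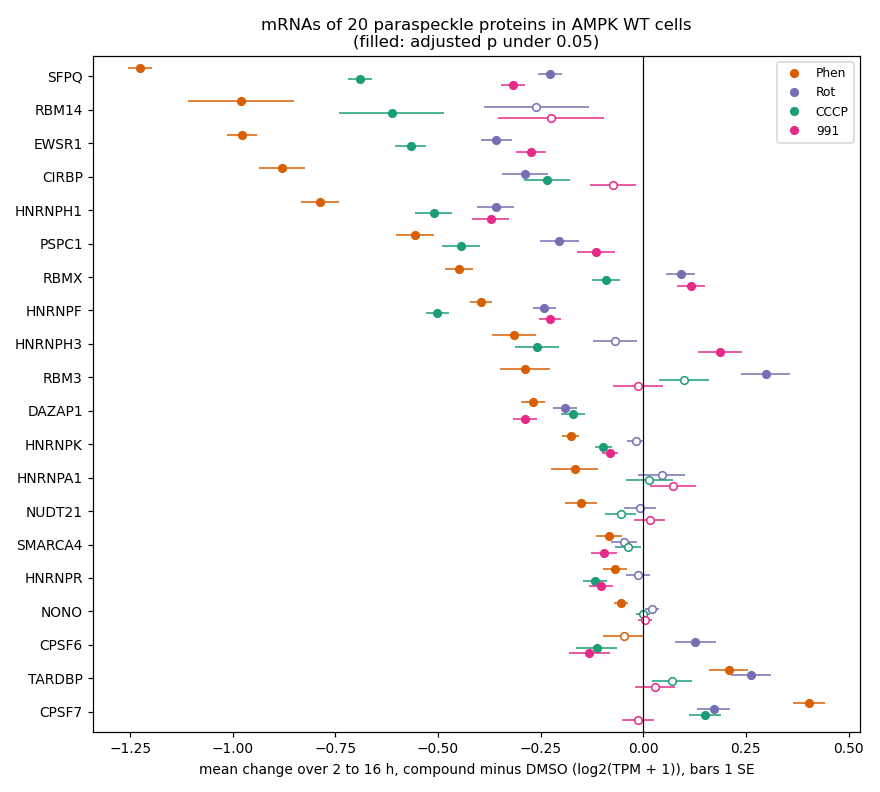
Mean change over 2 to 16 h in AMPK WT cells, compound minus DMSO on the log2(TPM + 1) scale, for 20 mRNAs of paraspeckle proteins, with bars of 1 SE and filled points where the adjusted p is under 0.05. The phenformin points run from -1.23 for SFPQ to 0.40 for CPSF7, and NONO lies between -0.05 and 0.02 with all compounds.

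With 991, SFPQ fell by 0.32 in AMPK WT cells (adjusted p = 4.29e-15), as did HNRNPH1 by 0.37 and DAZAP1 by 0.29, splicing regulators of the list, whereas HNRNPH3 rose by 0.19. In the other tables, 0 rose and 4 fell in FNIP1 WT, 6 rose and 11 fell in TFEB/TFE3 WT, 4 rose and 12 fell in ESRRA WT, and 5 rose and 9 fell in siControl cells with 991, of 20 tested each, beside 20.6%, 55.8%, 40.4% and 52.5% of all genes called. NEAT1 rose in those 4 arms while more of these mRNAs fell than rose, except with quantile normalization in siControl cells (7 rose and 6 fell). With median-ratio scaling the falls were 11 in FNIP1 WT and 15 in siControl cells.

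Nuclear speckle proteins, 18 listed and tested, fell more often than they rose with CCCP and 991 in AMPK WT cells, but not with phenformin or rotenone. In the order phenformin, rotenone, CCCP and 991, 7, 8, 4 and 1 rose and 6, 5, 9 and 10 fell, shares near those of all genes called. Without the phenformin 2 h libraries of conflicting wording, 7 rose and 8 fell with phenformin. SRSF5, a splicing activator of the SR family, fell by 1.65 with phenformin (adjusted p = 5.51e-34), by 0.80 with rotenone, by 0.92 with CCCP and by 0.78 with 991. RBM25, a regulator of alternative splicing, rose by 1.02 with phenformin, 0.86 with rotenone, 0.64 with CCCP and 0.61 with 991. In TFEB/TFE3 WT cells 0 of 18 rose and 13 fell with 991, beside 55.8% of all genes called.

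The enzymes that make the tailless ends, RNase P proteins and the RNase Z protein ELAC2, were 11 of 11 tested. In AMPK WT cells 2, 3, 2 and 0 rose and 6, 5, 7 and 5 fell with phenformin, rotenone, CCCP and 991, beside 75%, 67.9%, 69.6% and 60.2% of all genes called. RPP25, a subunit shared by RNase P and RNase MRP, fell by 0.60 with phenformin, 0.55 with rotenone, 0.62 with CCCP and 0.18 with 991. ELAC2 fell by 0.25 with 991 (adjusted p = 7.3e-13). Outside the AMPK table with 991, 3 of 11 fell in FNIP1 WT cells, 6 in TFEB/TFE3 WT, 7 in ESRRA WT and 7 in siControl cells, and 1 rose, in TFEB/TFE3 WT cells. Of all genes, 20.6%, 55.8%, 40.4% and 52.5% were called in these arms in the same order.

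Of 18 other long noncoding RNAs 11 were tested. In AMPK WT cells more fell than rose with each compound, with medians of -0.53 (phenformin), -0.20 (rotenone), -0.22 (CCCP) and -0.11 (991). With 991 in the control arms of the other tables more rose than fell. The medians there were 0.18 in TFEB/TFE3 WT, 0.17 in siControl, 0.07 in ESRRA WT and 0.30 in FNIP1 WT cells. Those of all genes were 0.08, 0.11, 0.04 and 0.08. Single members differed. GAS5, a snoRNA host transcript known to build up when translation is blocked, rose by 1.34 with phenformin (adjusted p = 2.3e-41), by 0.51 with rotenone, by 1.05 with CCCP and by 0.47 with 991 in AMPK WT cells. HOTAIRM1, from the HOXA cluster, fell by 1.41, 1.30, 1.31 and 0.80 with the same compounds, and TUG1 and NORAD, broadly expressed RNAs, fell by 1.34 and 1.23 with phenformin. In all, 3, 1, 2 and 2 rose and 6, 6, 6 and 4 fell, shares near those of all genes called. With 991, 7 rose and 1 fell in TFEB/TFE3 WT cells, 7 rose and 0 fell in siControl cells, 4 rose and 2 fell in ESRRA WT cells and 3 rose and 1 fell in FNIP1 WT cells. Of all genes, 55.8%, 52.5%, 40.4% and 20.6% were called in these arms in the same order. With median-ratio scaling the rises were 5, 4, 4 and 1.

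Genes within 250 kb of either RNA were measured to describe the region. In AMPK WT cells 22 of them were tested, mascRNA among them, and 4 rose and 8 fell with phenformin, 5 rose and 8 fell with rotenone, 5 rose and 6 fell with CCCP and 6 rose and 4 fell with 991, in each case a smaller share than the 75%, 67.9%, 69.6% and 60.2% of all genes called. The largest falls were RNASEH2C with phenformin (-0.61, adjusted p = 6.11e-16), a subunit of RNase H2, PCNX3 with CCCP (-0.48) and with rotenone (-0.46), and FAM89B with 991 (-0.38). DPF2, a subunit of the BAF chromatin remodeller, rose by 0.27 with CCCP and 0.19 with rotenone, and CDC42EP2 by 0.51 with phenformin. MIR4690, listed as a short RNA and thus uncertain, was the largest rise with phenformin (0.80). In siControl cells with 991, 0 of 20 neighbours rose and 7 fell, again a smaller share than the 52.5% of all genes called. NEAT1 and MALAT1 rose in those cells. In all 15 courses tested, the largest change among these genes was that of NEAT1 or, with 991 in ESRRA cells, of MIR4690.

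The genes with the most similar response were found by Pearson r over the changes from DMSO of 70 treated groups, among 12861 genes kept in all tables. Groups of an arm share their DMSO libraries, and the AMPK groups lie apart from the rest, so r is a description without a p. The SA5 groups are among the 70, with the 4 h contrast that chose NEAT1 and the DMSO library low in FNIP1. For NEAT1 these were NIPBL-AS1 (0.979), an antisense transcript whose reads may be mixed with those of its partner, PRORSD1P (0.975), DKFZP434I0714 (0.975), C3orf80 (0.973) and HOXB4 (0.973), a homeobox transcription factor. Within the 32 AMPK groups r was between 0.871 and 0.953 for these genes, and within the other 38 groups between 0.763 and 0.887. The least similar were DRG1 (-0.965), a GTPase that binds ribosomes, GTF2E2 (-0.938), a subunit of the general transcription factor TFIIE, and RPF2 (-0.935), a ribosome assembly factor.

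For MALAT1 the most similar were VPS9D1 (0.893), SGK494 (0.886), LAMB2 (0.881), a laminin chain, SLC30A4 (0.875), a zinc transporter, and SLC25A27 (0.870), a mitochondrial carrier. Within the AMPK groups these r were between 0.215 and 0.498. The least similar were AHCY (-0.850), which hydrolyses S-adenosylhomocysteine, POLR3K (-0.849), an RNA polymerase III subunit, and SSBP1 (-0.834), the mitochondrial single-strand DNA-binding protein. NEAT1 and MALAT1 had an r of 0.804 over all 70 groups, but of 0.318 within the AMPK groups and of 0.0531 within the other 38. The r was thus lower within both sets of groups than over all of them.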

How the data were processed

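Polyadenylated RNA of 240 HEK 293T libraries was analysed from the deposited TPM, made by the authors in 5 separate tables. Per the submitters' processing notes, FastQC, STAR and HOMER and the build GRCh38 were used, with no versions given. Depth is not known from TPM. Libraries were grouped by their titles and label tags, and 6 AMPK WT libraries were placed by library name and tags against the wording of their titles, 3 as Phen 2 h (worded 991 2 h) and 3 as CCCP 4 h (worded CCCP 16 h). No library was left out.

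A gene entered the tests of a table if 3 or more of its libraries reached 1 TPM, which left 13317 to 13746 genes. log2(TPM + 1) was fitted with 1 mean per group in limma 3.58.1 (R 4.3.3), with variances moderated along a mean trend, and the fit was tested on simulated data. Members and gene lists were chosen with earlier results of these data known. Named genes are the members, up to 3 rises and 3 falls of each list per compound in AMPK WT cells (a part is printed), genes within 250 kb, and the 5 most and 3 least similar genes. Each result was recomputed with a pseudocount of 0.1, without the filter, with median-ratio or quantile scaling, with a replicate block, in a fit of only the groups compared, without each replicate, and without the SA5 DMSO library low in FNIP1. Leaving out both SA5 libraries low in FNIP1, or those 6 AMPK WT libraries, was chosen after seeing the data. Where every same-numbered pair of a comparison correlated above 0.1 in its deviations from the group means, as for AMPK KO and WT under DMSO, the blocked value is given where it changes a call. One list member is not reported here. Sequences come from GENCODE 29 on GRCh38. Figures used matplotlib 3.10.9.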

Additional observations from a re-analysis of the deposited data

Results flagged for a closer look

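NEAT1 at 2 h of 991 in ESRRA cells was marked because the KO response exceeded the WT response by the test of the difference (1.39 on the log2 scale, adjusted p = 0.033 by limma), with DMSO levels that also differed between the arms. With 991 at 8 h, all NEAT1 libraries lay below DMSO in AMPK WT cells (-1.64) but above DMSO in FNIP1 WT (0.42), TFEB/TFE3 WT (1.43) and siControl cells (1.19). At 16 h the values were -2.21 in AMPK WT, 0.47 in FNIP1 WT, 1.19 in TFEB/TFE3 WT and 1.498 in siControl cells. These are differences in direction between control arms of separately normalized tables, and the difference itself was not tested. NEAT1 under DMSO was 71.1, 29.1 and 47.01 TPM in the AMPK WT cells, above each of the FNIP1 WT, TFEB/TFE3 WT and siControl DMSO libraries (5.55 to 9.96 TPM), whereas the ESRRA WT DMSO libraries, at 12.97 to 29.98 TPM, overlapped them.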

How the results depend on the processing

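No call changed direction, and all reversals below are of values that passed no test. Without the filter on low values, MALAT1 in AMPK KO cells with CCCP (-0.264) and NEAT1 in ESRRA WT cells (0.477) lost their calls. With median-ratio scaling, NEAT1 in ESRRA WT cells (0.433) lost its call, and signs turned for NEAT1 in AMPK WT cells at 2 h of 991 (0.0071) and in the AMPK difference of phenformin responses (0.00892), and for MALAT1 in AMPK WT cells at 8 h of 991 (-0.0516) and in ESRRA WT cells at 2 h (0.0103). With quantile normalization, NEAT1 in ESRRA WT cells (0.46) and MALAT1 in AMPK KO cells with CCCP (-0.13) and phenformin (-0.216), for phenformin against CCCP (-0.105) and for CCCP against 991 (-0.123) lost their calls. Signs turned there for NEAT1 in AMPK WT cells at 2 h of 991 (0.017) and in the phenformin difference (0.138), and for MALAT1 in AMPK KO cells at 4 h of CCCP (0.103) and 8 h of rotenone (0.0397), in AMPK WT cells at 8 h of 991 (-0.0798) and in FNIP1 WT cells at 8 h (-0.00622). A pseudocount of 0.1 turned the TFEB/TFE3 difference of MALAT1 responses (-0.117).

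With a replicate block, NEAT1 for rotenone against CCCP (-0.423, adjusted p = 0.0224) and MALAT1 for AMPK KO against WT under DMSO (-0.284, adjusted p = 0.0275) gained calls, and no other call of a mean change, DMSO difference or compound pair changed, while some single times also gained calls. Every same-numbered pair correlated above 0.1 in 5 of 33 comparisons of the AMPK table, 1 of 9 of the FNIP1 table and 0 of 11 in each of the others. This strict rule leaves out comparisons of the AMPK table in which only some pairs correlated. With 991 at 4 h in AMPK WT cells, r was 0.583, 0.550 and 0.0701 for replicates 1, 2 and 3. A fit of only the groups compared ended the calls of MALAT1 in AMPK KO cells with 991 (-0.311), NEAT1 in AMPK WT cells with 991 (-0.922) and NEAT1 in ESRRA KO against WT cells under DMSO (-0.936), and gave calls for rotenone against CCCP in NEAT1 (-0.423), MALAT1 in FNIP1 WT cells (0.238) and NEAT1 in SA5 against FNIP1 WT cells at 2 h (-0.351). Without the SA5 DMSO library low in FNIP1, the NEAT1 difference at 8 h passed (-0.436). Without both low SA5 libraries, NEAT1 at 2 h (-0.351) and MALAT1 in FNIP1 WT cells (0.238) passed, and MALAT1 of SA5 against WT at 8 h turned (-0.207).

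Without the 6 AMPK WT libraries of conflicting wording, NEAT1 for CCCP against 991 (-0.553) and MALAT1 with CCCP in AMPK WT cells (-0.233), for phenformin against CCCP (-0.114) and for CCCP against 991 (-0.122) lost their calls, and signs turned for the AMPK differences of NEAT1 responses to phenformin (0.127) and MALAT1 responses to CCCP (-0.071).

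Leaving out 1 replicate at a time gave these ranges for NEAT1. With 991 the AMPK KO mean change ran from -1.45 to -1.23, and the AMPK WT values from -1.04 to -0.709 for the mean, -0.166 to 0.117 at 2 h and -0.259 to 0.558 at 4 h. Others ran from -0.784 to -0.601 for AMPK KO against WT under DMSO, -0.258 to 0.279 for the phenformin difference, -1.07 to -0.731 for phenformin against rotenone, -0.513 to -0.316 for rotenone against CCCP, 0.899 to 1.01 for FNIP1 WT, -1.14 to -0.628 for ESRRA KO against WT under DMSO, and 0.297 to 0.782, -0.113 to 0.451 and -0.00458 to 0.71 for ESRRA WT over all times, at 8 h and at 16 h. For MALAT1 the AMPK KO ranges were -0.328 to -0.294 with 991 and -0.196 to 0.0191 at its 2 h, -0.297 to -0.218 with CCCP, and -0.0772 to 0.038 at 8 h of rotenone. The AMPK WT ranges were -0.062 to 0.109 at 4 h and -0.0718 to 0.0713 at 8 h of 991, -0.389 to -0.179 with CCCP and -0.158 to 0.0621 at its 16 h, -0.126 to 0.089 at 16 h of phenformin and -0.23 to 0.0344 at 16 h of rotenone. Differences ran from -0.0389 to 0.113 for AMPK CCCP responses, -0.00346 to 0.055 for TFEB/TFE3, -0.168 to 0.276 for ESRRA and -0.0611 to 0.0212 for PGC1A. Compound pairs ran from -0.136 to -0.0155 for phenformin against rotenone, -0.228 to -0.13 for phenformin against CCCP and -0.293 to -0.122 for CCCP against 991. FNIP1 WT ran from 0.1996 to 0.314, SA5 against WT from -0.234 to 0.153 at 8 h and -0.144 to 0.0389 at 16 h, and ESRRA WT from 0.384 to 0.724 for the mean and -0.162 to 0.227 at 2 h. Where these calls changed, the cause was not tested. Of 528 alternative list counts, 464 were within 1.5 times the count given. Without counts, depth sets no floor here, and MALAT1 near 1 TPM is the less precise of the pair on this scale.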
